A study of Mus musculus with 4 samples.

Results

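The H3K14ac regions described here are those on mouse chromosomes 1, 3, 5, 9 and 13, the autosomes with few control regions per Mb and a ratio of knockdown to control regions above 2.3. Every entry of both deposited peak lists on these 5 chromosomes was taken. There were 1203 of 10395 control regions (11.6%, exact 95% interval 11 to 12.2) and 3076 of 18438 knockdown regions (16.7%, 16.1 to 17.2), or 4279 of 28833 in both lists. The 5 chromosomes made up 28.6% of the length of the 20 chromosomes with a gene table. All cells were C3H10T1/2, an established mesenchymal stem cell line from C3H mouse embryos, grown in medium with serum. The control cells had a non-target control (the titles call them wild type), and the knockdown cells had received a lentiviral shRNA that targets Nap1l2. Each had 1 H3K14ac ChIP library and 1 input library, so that no difference below could be tested against a spread between replicates. Intervals are 95% intervals for counting error only, and tags are PCR products without molecular identifiers.

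Acetylation of lysine 14 of histone H3 (H3K14ac) is written by acetyltransferases and removed by deacetylases, and it is found at active promoters and enhancers together with other acetyl marks. NAP1L2 belongs to the nucleosome assembly proteins, chaperones that carry histones to and from DNA. Depletion was performed to ask how this chaperone affects the mark in cells that can form bone. RNA was not measured in these libraries, so neither the knockdown nor the cell type could be checked in them.

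The control ChIP library was the deeper one, with a mean pileup of 2.50 tags per position against 2.26 in the knockdown, and its input was deeper as well (1.51 and 1.27 tags). Tags at a summit are whole ChIP tags before scaling, whereas input values are on the scale of the shallower input library. For every input tag there were 1.66 ChIP tags in control cells and 1.77 in knockdown cells, so that tags cannot be divided by input without this scaling. Where the local input did not exceed that genome-wide level, 9 tags were the fewest that passed the p-value limit in the control and 8 in the knockdown. By its library number the control ChIP stands apart from the other 3 libraries, so that group and batch cannot be told apart.

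RefSeq promoter windows reached from 250 bases before to 50 after a gene start. Of 9142 such windows on the 5 chromosomes, 6 were touched by a control region (0.0656%) and 13 by a knockdown region (0.142%). The touching regions were 6 of 1203 in the control and 11 of 3076 in the knockdown. The share of bases inside the windows was not counted, so whether this is few is not known. The protein-coding genes among the touched windows were Ugt1a1, Lce1a1, Speer4d, Mmp20 and Chrnb4 in the control. In the knockdown they were Gm34066, Gm46425, Gm1979, Tpst2, Pate5 and Lman1l. No gene was on both lists, and nothing is read from this in lists so short. Those windows of protein-coding genes that were covered by a region over at least 100 of the 250 bases before the start are printed here, because they show which promoters these lists reached. They are the RefSeq sequences of GRCm38.p6, 5′ to 3′ on the strand of the gene, and capitals mark the bases inside the region. The highest −log10 q of a region at a printed window was 0.981, at Gm46425. None reached 1.3, the value for a q of 0.05.

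The knockdown windows were those of the predicted gene Gm34066 (chr1:54456787-54457036, minus strand, 9 tags), the predicted gene Gm46425 (chr13:65950339-65950588, plus strand, 16 tags), the predicted gene Gm1979 (chr5:26004728-26004977, minus strand, 10 tags), Tpst2, a tyrosine sulfotransferase of the Golgi (chr5:112296891-112297140, plus strand, 12 tags), and Lman1l, a lectin of the secretory pathway (chr9:57620775-57621024, minus strand, 12 tags).
Gm34066: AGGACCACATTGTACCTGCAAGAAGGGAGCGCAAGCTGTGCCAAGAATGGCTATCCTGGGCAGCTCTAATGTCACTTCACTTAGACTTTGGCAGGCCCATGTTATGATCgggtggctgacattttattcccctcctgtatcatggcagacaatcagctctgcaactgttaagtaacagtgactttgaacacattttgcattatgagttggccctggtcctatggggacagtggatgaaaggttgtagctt
Gm46425: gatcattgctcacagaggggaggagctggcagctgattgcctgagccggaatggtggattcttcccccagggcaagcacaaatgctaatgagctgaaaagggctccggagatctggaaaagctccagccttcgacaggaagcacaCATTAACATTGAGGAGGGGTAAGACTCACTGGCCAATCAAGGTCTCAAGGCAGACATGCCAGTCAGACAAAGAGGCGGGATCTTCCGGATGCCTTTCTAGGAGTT
Gm1979: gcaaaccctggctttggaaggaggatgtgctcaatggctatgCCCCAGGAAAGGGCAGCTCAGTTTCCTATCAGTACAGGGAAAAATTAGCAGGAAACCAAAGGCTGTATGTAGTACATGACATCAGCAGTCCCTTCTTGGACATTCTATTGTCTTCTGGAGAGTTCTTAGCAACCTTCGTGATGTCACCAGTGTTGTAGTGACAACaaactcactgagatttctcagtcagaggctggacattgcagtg
Tpst2: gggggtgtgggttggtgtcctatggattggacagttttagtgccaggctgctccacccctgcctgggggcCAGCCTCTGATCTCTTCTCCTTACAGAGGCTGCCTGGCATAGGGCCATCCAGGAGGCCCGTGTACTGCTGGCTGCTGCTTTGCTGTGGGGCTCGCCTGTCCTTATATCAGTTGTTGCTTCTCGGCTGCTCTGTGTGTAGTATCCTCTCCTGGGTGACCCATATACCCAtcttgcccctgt
Lman1l: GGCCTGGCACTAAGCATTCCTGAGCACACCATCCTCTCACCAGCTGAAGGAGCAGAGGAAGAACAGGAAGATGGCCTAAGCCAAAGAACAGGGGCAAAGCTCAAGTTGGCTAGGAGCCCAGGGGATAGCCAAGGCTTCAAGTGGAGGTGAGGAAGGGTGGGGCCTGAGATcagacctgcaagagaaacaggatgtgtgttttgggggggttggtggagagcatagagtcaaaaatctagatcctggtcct

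The control windows were those of Mmp20, the matrix metalloproteinase of developing enamel (chr9:7627981-7628230, plus strand, 11 tags), and Chrnb4, a nicotinic acetylcholine receptor subunit (chr9:55048545-55048794, minus strand, 11 tags).
Mmp20: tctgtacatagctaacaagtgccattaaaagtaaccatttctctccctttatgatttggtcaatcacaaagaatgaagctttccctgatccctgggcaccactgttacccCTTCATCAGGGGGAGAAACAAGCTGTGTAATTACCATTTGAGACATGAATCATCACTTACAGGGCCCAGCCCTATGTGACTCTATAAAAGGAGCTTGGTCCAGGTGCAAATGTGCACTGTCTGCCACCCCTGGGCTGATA
Chrnb4: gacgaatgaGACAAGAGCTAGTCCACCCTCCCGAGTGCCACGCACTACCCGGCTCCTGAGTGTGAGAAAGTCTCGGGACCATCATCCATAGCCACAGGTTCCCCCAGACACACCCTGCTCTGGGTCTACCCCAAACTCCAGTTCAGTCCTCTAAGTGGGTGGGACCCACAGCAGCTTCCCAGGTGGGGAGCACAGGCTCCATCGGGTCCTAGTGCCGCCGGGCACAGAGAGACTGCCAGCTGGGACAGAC

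The touched windows held few CG dinucleotides, which read the same on both strands. The 6 protein-coding knockdown windows held 0 to 5 CG and the 5 control windows 0 to 8, against a median of 11 over the 5572 protein-coding windows of the 5 chromosomes, of which 34.8% held 5 or fewer. All 6 knockdown windows and 4 of the 5 control windows held 5 or fewer. The G and C content was 43.2 to 58.4% in the knockdown windows and 44.8 to 61.2% in the control windows (median of all protein-coding windows 56.4%). The knockdown window of Gm1979 and the control window of Speer4d were alike at 71.3% of 216 bases. They were aligned at a single offset without gaps, so that an inserted or missing base lowers this value. Speer4d is a member of the Speer family, which has many near-identical copies on chromosome 5. Reads from such copies may have been placed on either. The other 54 pairs of these 11 windows were each alike at under 50% of their aligned bases.

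The number of regions was used to choose the chromosomes and is given as a description only. The control list held 300 regions on chromosome 1, 150 on chromosome 3, 271 on chromosome 5, 230 on chromosome 9 and 252 on chromosome 13. The knockdown list held 797, 462, 631, 557 and 629 regions, respectively. Chromosome 3 was the most sparsely covered, with 0.938 control and 2.89 knockdown regions per Mb, and chromosome 13 the most densely covered, with 2.09 and 5.23 per Mb. The ratio was 2.33 on chromosome 5, just inside the rule, and 3.08 on chromosome 3. Just outside it were chromosome 7, with 352 control and 768 knockdown regions (2.18), and chromosome 2, with 413 and 860 (2.08). Over the 5 chromosomes the ratio was 2.56 (2.39 to 2.74), that is 1873 additional knockdown regions. On the other 14 autosomes it was 1.66 (1.61 to 1.70).

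**Figure D1:**
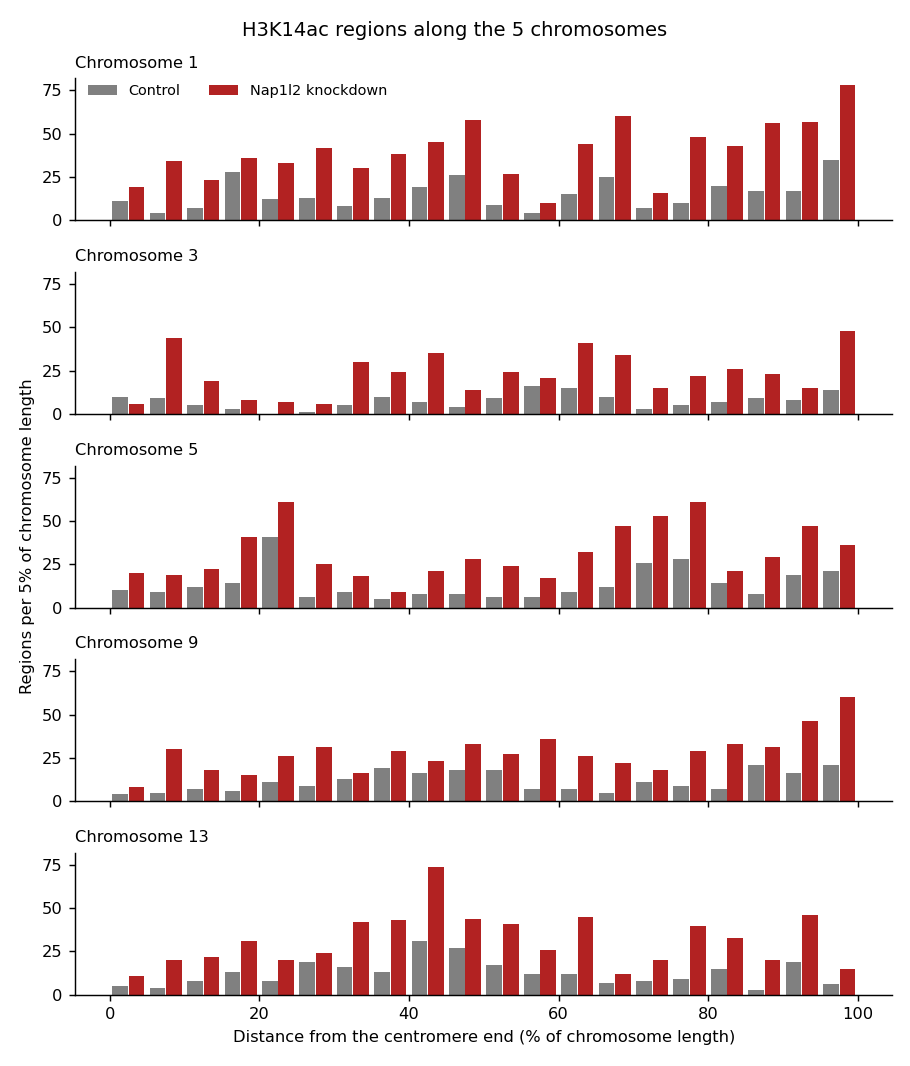
H3K14ac regions in each 5% of the length of chromosomes 1, 3, 5, 9 and 13, from the centromere end (left) to the distal end, in the control (grey bars, 1 library) and the Nap1l2 knockdown (red bars, 1 library). Knockdown bars are taller than control bars in every stretch except the first 5% of chromosome 3 (10 control and 6 knockdown regions).

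By summit tags, most of the additional regions were weak. The summit of a region held a median of 13 tags in the control (range 9 to 58) and 12 tags in the knockdown (range 8 to 36). Between 8 and 11 tags there were 25 and 357 control regions (8 to 9 tags and 10 to 11 tags) against 392 and 1015 knockdown regions. Between 12 and 13 tags there were 405 and 871, between 14 and 15 tags 259 and 472, and at 16 or more tags 157 and 326. The ratio was 2.03 (1.87 to 2.21) at 12 or more tags and 1.92 (1.70 to 2.16) at 14 or more. It was 2.08 (1.71 to 2.53) at 16 or more and 2.52 (1.56 to 4.18) at 20 or more, on 25 control and 63 knockdown regions. At a −log10 p of at least 4 the ratio was 2.80 (2.47 to 3.17), above the 2.56 of all regions. That limit is not the same number of tags in both lists. Where the local input did not exceed the genome-wide level, 13 tags gave a −log10 p of 4.25 in the knockdown. In the control 13 tags gave 3.76 and 14 tags 4.54. When the knockdown list was shortened to the 10395 entries with the highest −log10 p, 1732 of them lay on the 5 chromosomes, a ratio of 1.44 (1.34 to 1.55). On the other 14 autosomes the ratio was then 0.941 (0.913 to 0.969). A −log10 q of at least 1.3 was reached by 7 control regions (0.582%) and 53 knockdown regions (1.72%), and the q-value was listed as 1 (−log10 of 0) for 71.7% and 68.2% of the regions.

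**Figure D2:**
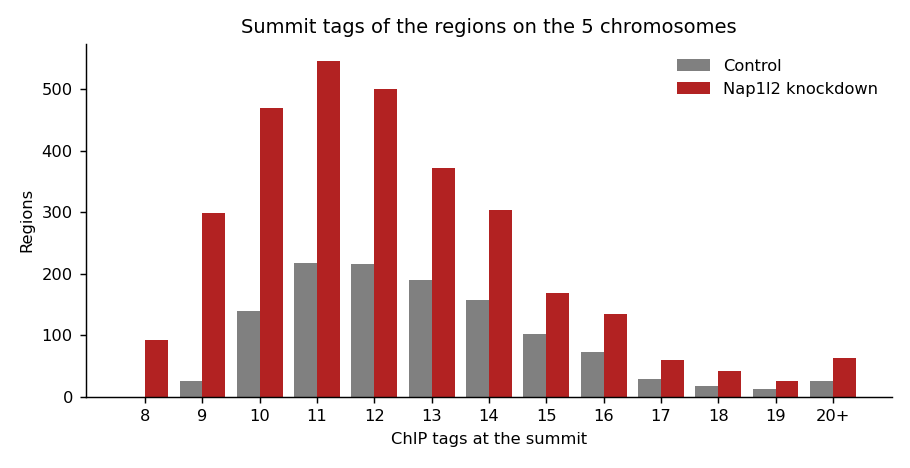
Number of regions on the 5 chromosomes (y axis) by ChIP tags at the summit (x axis, the last class holding 20 or more tags) in the control (grey) and the knockdown (red). The knockdown bars are taller in every class, with 93 knockdown regions and no control region at 8 tags, below the 9 tags that the control needed.

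The input under the regions moved with these numbers. On the 5 chromosomes 67.8% of control regions and 79.1% of knockdown regions were judged against the genome-wide input background, since the local input was not above it, compared with 47.2% and 64.2% on the other autosomes. By chromosome the control share was 63.9 to 70.7% on the 5 chromosomes, and from 22.3% on chromosome 15 to 66.5% on chromosome 7 on the others. Knockdown regions outnumbered control regions by a ratio of 2.98 (2.75 to 3.23) at that background and of 1.66 (1.46 to 1.89) for regions with a higher local input. The part of the input in the difference was not tested.

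Additional knockdown regions lay along the whole length of the 5 chromosomes. Mouse chromosomes carry the centromere at the start, and each was divided into 3 parts of equal length. The part next to the centromere held 26.8% of control and 26.5% of knockdown regions, the middle part 35.2% and 34.3%, and the distal part 37.9% and 39.2%. The chromosomes differed among themselves. On chromosome 13 the middle part held 46.8% of the control and 45.9% of the knockdown regions. On chromosome 5 the middle part held 18.8% (14.3 to 24) and 24.4% (21.1 to 28), and the distal part 45.8% and 44.1%. Of 78 windows of 10 Mb, 77 held more knockdown than control regions. Among the 73 windows of full length the ratio had a median of 2.75 and ranged from 1.35 to 9, and it was above 2 in 60 of them.

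The highest ratios were found where the control was nearly empty. From 30 to 40 Mb of chromosome 3 there was 1 control region and 8 knockdown regions, and from 40 to 50 Mb there were 1 and 9. The windows from 10 to 20 Mb of chromosome 1 (5 and 34 regions) and of chromosome 3 (5 and 33) came next. At the other end, the window from 40 to 50 Mb of chromosome 9 held 34 control and 46 knockdown regions, and that from 120 to 130 Mb of chromosome 5 held 27 and 41.

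Stretches without a control region were filled only in part. A distance of more than 1 Mb between neighbouring control regions occurred 208 times, and these gaps took up 439.9 Mb (58.5%) of the 5 chromosomes. They held 1353 knockdown regions, 44.0% of that list. The knockdown density was 3.08 regions per Mb inside the gaps and 5.53 per Mb outside, and 5 gaps held none. The longest gap, chr3:31957672-47387467, spanned 15.4 Mb with 58 protein-coding genes and held 13 knockdown regions of 8 to 20 tags, 2 of them in gene bodies. A gap of 6.05 Mb on chromosome 9 (chr9:8147535-14198488) held 24 knockdown regions of 8 to 22 tags, 11 of them in gene bodies. Regions inside the gaps had a median of 11 tags and a median width of 202 bp, against 12 tags and 199 bp outside. Distances of more than 1 Mb between knockdown regions occurred 100 times over 169.1 Mb and held 113 control regions, and 40 of these gaps held none. The longest was chr1:107848372-112745535, with 4.90 Mb and 2 control regions.

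In bins of 1 Mb the share of bins with more knockdown regions was that of the other autosomes. Of 739 bins on the 5 chromosomes, 569 (77.0%) held more knockdown than control regions and 71 (9.61%) more control regions. The background over the other 14 autosomes was 77.6% and 13.8%. Bins with a knockdown region and no control region numbered 181 (24.5%), against a background of 9.5%, and 46 bins had no region in either list. Since the chromosomes were chosen for few control regions, nothing is read from this difference. Across the 739 bins the counts of the lists had a correlation of 0.512 (Pearson) and 0.480 (Spearman), and across the 1674 bins of the other autosomes of 0.723 and 0.721. These describe bins of the same 2 libraries, which share mappability and base composition.

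The 5 bins with the largest excess of knockdown regions lay on chromosomes 1 and 13. On chromosome 1 from 154 to 155 Mb there were 4 control and 20 knockdown regions. All 4 control regions and 9 of the knockdown regions lay in Cacna1e, which encodes the pore subunit of a voltage-gated calcium channel. On chromosome 13 from 42 to 43 Mb there was no control region and 16 knockdown regions of 8 to 15 tags, 3 in Phactr1, a regulator of actin and protein phosphatase, and 1 in Hivep1, a zinc finger transcription factor. The bin also holds Edn1, the gene of endothelin, with none in its body. On chromosome 13 from 52 to 53 Mb the counts were 6 and 17, with 3 knockdown regions in Auh, an RNA-binding mitochondrial hydratase. From 49 to 50 Mb of the same chromosome they were 3 and 14, with 3 knockdown regions each in Fgd3, an exchange factor for small GTPases, and Wnk2, a kinase of ion transport. That bin also holds Aspn, Omd and Ogn, small leucine-rich proteoglycans of bone and cartilage matrix, with no region in their bodies. On chromosome 1 from 181 to 182 Mb the counts were 1 and 12, with 5 knockdown regions in Dnah14, an axonemal dynein heavy chain.

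The reverse was seen in 71 of the 739 bins. The following were among those with the largest excess of control regions. On chromosome 3 from 93 to 94 Mb, where the epidermal genes Flg, Hrnr and Tchh and the Tdpoz genes lie, there were 9 control regions of 13 to 24 tags and 2 knockdown regions, with none in a gene body. On chromosome 9 from 110 to 111 Mb there were 9 and 2, with 3 control regions in Nbeal2, a protein of platelet granules, and 2 in Ccdc12. On chromosome 3 from 67 to 68 Mb there were 4 control regions and no knockdown region.

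The regions of both lists were far apart. Neighbouring control regions were a median of 304 kb apart (272 to 336) and neighbouring knockdown regions 125 kb (117 to 135). On the other autosomes the medians were 77.8 and 56.0 kb. Distances under 10 kb made up 61 of 1198 (5.09%) in the control and 225 of 3071 (7.33%) in the knockdown, and distances under 1 kb numbered 9 and 30. A knockdown region was a median of 158 kb from the nearest control region, compared with 45.1 kb on the other autosomes. The spacings and this distance depend on the number of regions per Mb. Since the chromosomes were chosen for few control regions, nothing is read from the differences to the other autosomes. Only 215 knockdown regions (6.99%) were within 10 kb of a control region, 963 (31.3%) were 10 to 100 kb away, 1714 (55.7%) were 100 kb to 1 Mb away and 184 (5.98%) farther.

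**Figure D3:**
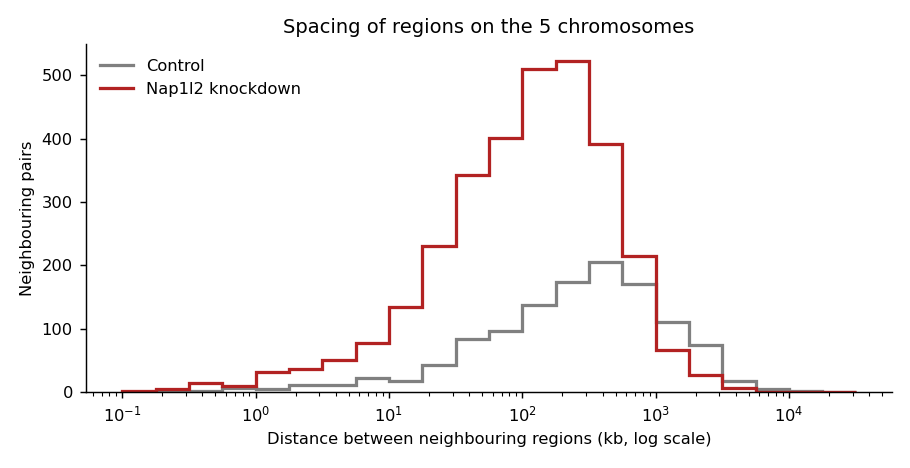
Number of neighbouring pairs of regions on the 5 chromosomes (y axis) by the distance between them in kb (x axis, log scale) in the control (grey line) and the knockdown (red line). The knockdown line peaks at shorter distances (median 125 kb against 304 kb), and the control line lies above it only beyond 1000 kb, where 208 control and 100 knockdown pairs fall.

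Some regions formed small groups with less than 10 kb between neighbours. The knockdown list had 203 such groups with 428 regions (13.9%, 12.7 to 15.2), of which 186 were pairs and 17 had 3 or more members. The control list had 53 groups with 114 regions (9.48%, 7.88 to 11.3). A denser list has more neighbours within 10 kb, and the knockdown list held 4.09 regions per Mb against 1.60. Nothing is therefore read from the higher knockdown share. Relative to its mean, the median spacing was 0.499 in the control and 0.521 in the knockdown. The largest knockdown group lay in Mroh2a, a HEAT repeat gene (chr1:88227549-88247120), with 6 regions of 19, 22, 22, 19, 20 and 17 tags, and 5 of these were within 10 kb of a control region. The input was raised in Mroh2a in both cultures, to 3.10 to 4.46 tags under these knockdown regions and to 6 tags under control regions of 24 and 26 tags. Next came 4 regions of 11, 10, 11 and 15 tags between chr13:70528875-70540808, 59.6 kb from Ice1, and 4 of 10, 10, 8 and 10 tags between chr1:136586094-136612845, 30.2 kb from the kinesin gene Kif14. In the control the largest group was 4 regions of 18, 15, 13 and 14 tags in Dst (chr1:34043050-34056990), a cytoskeletal linker protein.

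The regions were narrow in both lists. The median width was 191 bp (186 to 195) in the control and 199.5 bp (197 to 204) in the knockdown, and 29.9% and 24.8% of the regions had 165 bp, the shortest width in either list. Widths of 400 bp or more were listed for 19 control regions (1.58%, 0.954 to 2.46) and 95 knockdown regions (3.09%, 2.51 to 3.76). Among regions of equal tags the medians were 196 and 221 bp at 9 tags, 184 and 189 bp at 12 tags, 182 and 188.5 bp at 14 tags, and 181 and 221 bp at 16 tags, where there were 73 control and 135 knockdown regions. The gap was thus narrower than in the whole lists at 12 and 14 tags and wider at 9 and 16 tags. The control regions added up to 256.5 kb and the knockdown regions to 696.3 kb. The widest knockdown regions were 764 bp in Serpinb12, an epithelial serine protease inhibitor (chr1:106952794-106953557), 727 bp at 151.7 kb from Abhd5, an activator of fat breakdown, and 721 bp in Gadl1, a decarboxylase (chr9:116014418-116015138). The widest control region had 594 bp and lay in the collagenase gene Mmp1a (chr9:7468059-7468652).

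Hardly any region was in both lists. Overlap by at least 1 bp was found for 20 pairs, that is 1.66% of control regions (1.02 to 2.56) and 0.650% of knockdown regions (0.398 to 1.00). There were 8 pairs on chromosome 1, 6 on chromosome 5, 6 on chromosome 13 and none on chromosomes 3 and 9. The pairs overlapped by 61 to 312 bp, and 9 pairs were higher in tags in the control, 11 in the knockdown. The strongest in the knockdown lay 27.4 kb from Prl2c2, a proliferin gene (chr13:12968428-12968700), with 22 tags over an input of 4 tags in the control and 17 tags over 1.27 in the knockdown. A shared region 18.3 kb from Tgfb2, which encodes a TGF-β ligand (chr1:186604286-186604514), had 13 control and 16 knockdown tags. That near Slc28a3, a nucleoside transporter, had 12 and 17 tags, and that near Cartpt, a neuropeptide gene, 15 and 19. Of the 2 pairs in Ccdc60, the stronger had 15 and 14 tags. Shared regions had medians of 14 control tags and 14.5 knockdown tags, against 13 and 12 in the unshared regions. Their median −log10 p was 3.69 in the control and 3.58 in the knockdown, against 3.76 and 3.44.

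Of the 10 strongest knockdown regions without a control partner, 2 lay in a gene body, beside 38.3% of all knockdown regions. A pair of regions on chromosome 13 had 25 tags each over an input of 1.27 and a −log10 p of 11.1. The region chr13:52035306-52035624 was 186.8 kb from Gadd45g, a stress-induced growth arrest gene, and 38.8 kb from the nearest control region. The region chr13:52578431-52578648 was 3.96 kb from Syk, a tyrosine kinase of immune receptors, and 103.3 kb from one. A region of 24 tags on chromosome 9 was 648.7 kb from Arpp21, a phosphoprotein of neurons. In Nos1ap, an adaptor of neuronal nitric oxide synthase, 28 tags stood over an input of 2 tags (chr1:170562651-170562891). The others of the 10 strongest had 22 to 27 tags. They lay in Il18r1, an interleukin receptor gene, 2.79 kb from Lrrc8b, a subunit of the volume-regulated anion channel, and 64.9 to 145.1 kb from Cryba4, Zfp326, Zfp169 and Prl2c3. The region near Prl2c3 was only 0.939 kb from a control region, and the rest of these were 24.4 to 300.6 kb from one.

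Of the 5 strongest unshared control regions, 3 were in gene bodies, beside 42.5% of all control regions. Counts this small do not set the strongest regions apart from their lists. The strongest had 25 tags and a −log10 p of 11.1 and lay 0.972 kb from the end of Mndal, an interferon-inducible gene (chr1:173881354-173881549), with a knockdown region 3.17 kb away. Elfn1, a synaptic adhesion protein, held 24 tags, Adamts7, a metalloproteinase of cartilage matrix, 20 tags, and Thsd7b 19 tags. The fifth had 19 tags and was 32.8 kb from Sertad4.

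Gene bodies held regions in about the proportion of their length. On the 5 chromosomes 39.6% of the bases lie in the body of one of 5486 protein-coding genes. Such a body was overlapped by 42.5% of control regions (39.7 to 45.3) and 38.3% of knockdown regions (36.6 to 40.1). The order was the reverse when a −log10 p of 4 or more was required, with 39.2% of 342 control and 41.4% of 956 knockdown regions. Windows reaching 2 kb to each side of a gene end made up 5.18% of the bases, and held 73 control regions (6.07%, 4.79 to 7.57) and 150 knockdown regions (4.88%, 4.14 to 5.70). More than 100 kb from any protein-coding gene lay 18.0% of the control and 22.3% of the knockdown regions. Exons and introns were not told apart, as the gene table gives extents only.

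Gene-rich bins had a lower ratio of knockdown to control regions than gene-poor bins. It was 2.92 (2.40 to 3.57) in bins with 0 to 1 protein-coding genes, 3.06 (2.68 to 3.49) with 2 to 5, 2.45 (2.20 to 2.72) with 6 to 14 and 1.98 (1.70 to 2.31) with 15 or more. The numbers behind these values were 139 control and 406 knockdown regions, 309 and 944, 498 and 1218, and 257 and 508. On the other autosomes the ratios were 2.12, 1.78, 1.63 and 1.32 in the same classes. Since the 5 chromosomes were chosen for a high ratio, nothing is read from the lower values there. At 12 or more tags the 4 ratios on the 5 chromosomes were 2.05, 2.79, 1.87 and 1.57. With equal numbers of entries in both lists they were 1.54, 1.78, 1.4 and 1.06. The share of control regions at the genome-wide input background fell along the classes too, from 74.1 and 74.4% to 65.1 and 61.9%, and its part in the ratio was not tested.

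**Figure D4:**
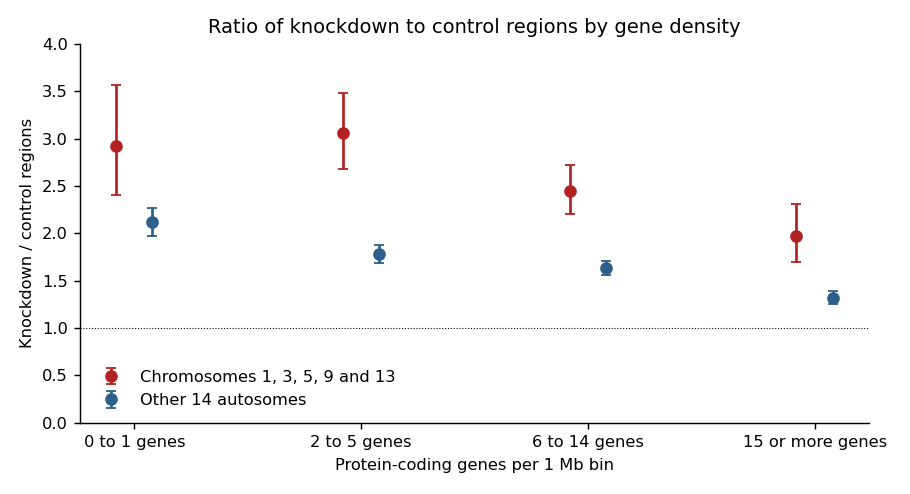
Ratio of knockdown to control regions (y axis) in 1 Mb bins grouped by the number of protein-coding genes (x axis), on chromosomes 1, 3, 5, 9 and 13 (red) and on the other 14 autosomes (blue), with 95% intervals for counting error. The red points fall from about 3 in bins of up to 5 genes to 1.98 in bins of 15 or more. Each lies above the blue point of its class, and the red chromosomes were chosen for a high ratio. The dotted line marks a ratio of 1.

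The control list had a region in the body of 414 genes (7.55%) and the knockdown list in that of 739 genes (13.5%), against a background over the genes of all 20 chromosomes of 12.2% and 17.2%. There were 199 genes (3.63%) with regions in both, against 1284 (8.46%) on the other 14 autosomes. Since the 5 chromosomes were chosen for few control regions, nothing is read from this difference. Genes with a knockdown region and no control region numbered 540 (9.84%, background 10.2%), and those with a control region only 215 (3.92%, background 5.22%). The share of genes with a region rose with their length. Among genes of up to 20 kb it was 1.58% in the control and 2.85% in the knockdown, from 20 to 100 kb 7.26% and 13.7%, from 100 to 300 kb 25% and 42.9%, and above 300 kb 48.2% and 81.2%. Per Mb of gene the control density was 1.91, 1.78, 1.96 and 1.55 regions in these classes. The knockdown density was 3.59, 3.6, 4.37 and 4.30. The genes with a knockdown region had a median length of 98.4 kb, against 22.1 kb for all genes on the 5 chromosomes.

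The genes with the most knockdown regions were all long. Rbms3, an RNA-binding protein gene of 1057 kb on chromosome 9, held 2 control regions of 15 and 13 tags and 11 knockdown regions of 8 to 14 tags. Pde4d, a cyclic AMP phosphodiesterase gene of 1302 kb on chromosome 13, held 3 control regions of 10, 11 and 13 tags and 10 knockdown regions of 9 to 19 tags. In Sorcs2, a sorting receptor of the sortilin family, the lists were nearly equal, with 9 control regions of 11 to 15 tags and 10 knockdown regions of 8 to 17 tags. Cacna1e held 4 control regions of 10 to 13 tags and 9 knockdown regions of 9 to 17 tags.

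The remaining genes of this set had 7 knockdown regions each. Itga9, an integrin subunit, held 2 control regions (14 and 12 tags) and knockdown regions of 9 to 14 tags. In Kif26b, a kinesin family gene, there were 2 control regions (15 and 13 tags) and knockdown regions of 11 to 14 tags. St6galnac3, a sialyltransferase, had 1 control region of 11 tags and knockdown regions of 10 to 15 tags. Rora, a nuclear receptor of lipid metabolism and the circadian clock, had no control region and knockdown regions of 12, 13, 16, 15, 10, 19 and 10 tags. None of the regions in these 8 genes was shared between the lists. Over the 5 chromosomes 1.66% of control and 0.650% of knockdown regions were shared, so nothing is read from this. The control exceeded the knockdown in Dst (8 and 2 regions), and Kcnh1, a potassium channel gene, had 5 and 6.

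**Figure D5:**
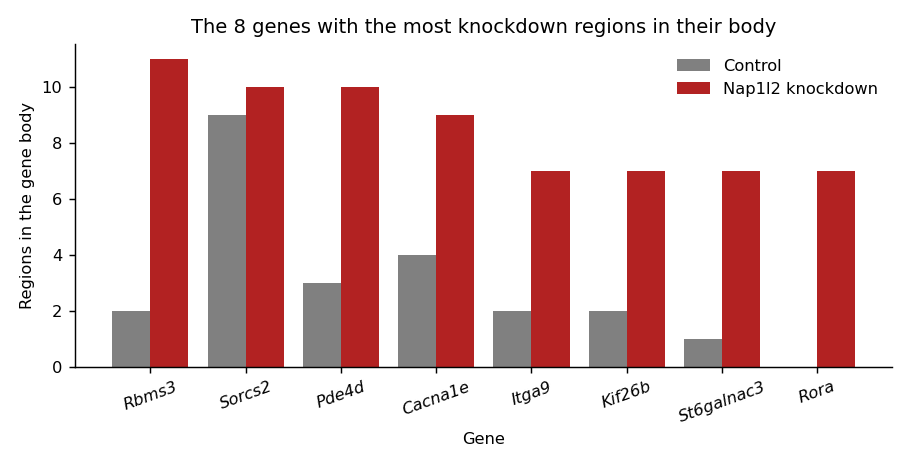
Number of H3K14ac regions in the body of the 8 genes with the most knockdown regions (y axis) in the control (grey bars) and the knockdown (red bars), 1 library each. Sorcs2 holds 9 and 10 regions, whereas Rora holds 0 and 7.

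Gene ends were counted in the same way. A region within 2 kb of an end was listed for 75 genes in the control (1.37%, background 2.88%) and for 156 in the knockdown (2.84%, background 4.48%). Only Amer3, Ifi211, Slc5a6, Oas3 and Lman1l were in both. The strongest knockdown region at an end lay 1.39 kb from Ofcc1 (20 tags, −log10 p 7.76). It was followed by regions of 18 tags in Vmn1r194, a vomeronasal receptor gene, and 0.968 kb from Actb, the gene of β-actin (chr5:142908944-142909132). The Actb region was 87.8 kb from the nearest control region. A region of 19 tags lay within 2 kb of an end of both Tmprss11g and Tmprss11f, which encode membrane serine proteases. Regions of 16 tags were found at the ends of Pid1, Gm46425 and Dmgdh, a mitochondrial dehydrogenase, and one of 20 tags at Gm21190. In the control, the strongest after Mndal were AF067061 (20 tags) and 2 regions at Gm21149. One of these had 58 tags over an input of 13 tags, the highest input under any region here, and lies among repeated genes on chromosome 5. Gene starts, available for 4602 of the genes, were within 2 kb of 38 control regions (3.16%) and 74 knockdown regions (2.41%), and the median distance to a start was 63.5 and 78.0 kb.

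Bone and bone matrix genes were represented by 20 genes on the 5 chromosomes. A region in the body was listed for 2 in the control, Ihh and Bmp6, and for 3 in the knockdown, Gli2, Gli3 and Bmp6. That is 10% and 15%, beside 7.55% and 13.5% of all genes on these chromosomes. Gli2, a transcription factor of hedgehog signalling, held no control region and 5 knockdown regions of 13, 11, 13, 14 and 13 tags over 220.3 kb. Bmp6, a bone morphogenetic protein, held 1 control region of 15 tags and 4 knockdown regions of 11, 13, 13 and 11 tags. Gli3, a relative of Gli2, had 1 knockdown region of 13 tags. Ihh, a hedgehog ligand of cartilage, had 1 control region of 11 tags, which was also the only region of the list at a gene end.

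No region was listed in the body or at an end of the matrix protein genes Bglap, Spp1, Ibsp, Dmp1, Dspp, Mepe, Postn, Fmod, Col3a1 and Col5a2. The region nearest to Bglap, the osteocalcin gene on chromosome 3, was 568.3 kb away in the control (14 tags) and 25 kb away in the knockdown (chr3:88409463-88409710, 16 tags, −log10 q 0.981). Spp1 and Ibsp, the genes of osteopontin and bone sialoprotein on chromosome 5, were nearer to a control region than to a knockdown region, at 426.8 and 590.5 kb for Spp1 and 291.0 and 720.1 kb for Ibsp.

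In the BMP, TGF-β and Wnt signalling list, 3 of 20 genes (15%) had a control region in the body and 5 (25%) a knockdown region, beside the same 7.55% and 13.5% of all genes on these chromosomes, the shares that hold for every list here. Bmpr1b, a BMP receptor, had 1 region in each list (12 and 10 tags), and Smad6, an inhibitor of BMP signalling, had 1 control region of 11 tags and 2 knockdown regions of 11 and 16 tags. Wnt10a had a control region only (13 tags). Knockdown regions alone were listed in Smad3, a mediator of TGF-β signals (10 and 11 tags), Lef1, a transcription factor of the Wnt pathway (12 and 9 tags), and Wnt2b (11 tags). The other lists had no control region in a body. Of 19 senescence and secretory genes, Tnfrsf11a, the receptor for the osteoclast factor RANKL, had a knockdown region of 11 tags and Bcl2, an inhibitor of apoptosis, one of 16 tags. Of 10 genes of histone acetylation and chaperones, Hdac4, a deacetylase, had 3 knockdown regions of 10, 11 and 10 tags and the coactivator Ncoa2 had 1 of 12 tags. Of 11 stromal markers, Col6a3, a collagen chain, had a knockdown region of 10 tags, Kit one of 11 tags at an end, and Ncam1 a control region of 12 tags at an end. The genes in these lists had a median length that differed between lists, from 10.8 kb in the senescence list to 64.3 kb in the histone list.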

How the data were processed

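H3K14ac ChIP-seq was analysed in 1 control and 1 Nap1l2 knockdown culture of C3H10T1/2 cells, each with its own input. Per the labels, chromatin was sonicated and libraries were made with a transposase kit. The submitters' processing notes name BWA 0.7.13, Picard 1.126, MACS2 2.1.0 and the mm10 build. The file names state single-end tags, removed duplicates, a p limit of 0.01 and a filter that is not described. The authors deposited 1 list per ChIP library, called on single libraries. In the deposited files the fold enrichment is the ratio, at the summit, of ChIP tags scaled down to the depth of the input (by 0.602 in the control and 0.565 in the knockdown) to the local input, after 1 was added to each. The −log10 p-value and −log10 q-value of the summit were deposited, as was a score that repeats the p-value column. Other deposited columns hold position and summit offset. Depth is not stated in the files.

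Tags at each summit and the local input were recovered by solving the p-value and fold equations of MACS2 for whole tags, which succeeded for 100% of entries, of which 7 control entries and 1 knockdown entry had more than 1 solution. The method was tested on simulated data. Positions are counted from 1 on GRCm38. Gene extents and promoter windows are from RefSeq (GRCm38.p6). Regions were called shared if they overlapped by at least 1 bp. The first 3 Mb of each chromosome, which hold no sequence, were left out of the 1 Mb bins. With 1 library per group, no test was made, and no replicate could be compared. Shares carry Clopper-Pearson intervals and ratios of counts exact binomial intervals.

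The chromosomes, gene lists and rules for named genes were chosen with earlier results of these data known. Named genes are those nearest to the strongest unshared, shared and gene-end regions, those with the most knockdown regions in the body, those in the 1 Mb bins that differed most, and list members with a region. In addition, 1 gene that is not reported here was removed from its list before counting. The widest regions, the region groups and Dst and Kcnh1 were named after their values were seen. Alternatives were limits on p, fold and tags, equal list lengths, other overlaps and windows, and leaving out each chromosome. Those for genome-wide background only and gene starts only were added after seeing the data. Python 3.11.15, pandas 2.3.3, numpy 2.4.6 and scipy 1.17.1 were used.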

Additional observations from a re-analysis of the deposited data

How the results depend on the processing

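Without replicates, no library could be left out. No paired analysis was possible because there was 1 sample a group. Of 166 alternative values over 15 results, 111 stayed within the interval of the reported value (or within 1.5 times for counts of genes), 55 moved and none reversed the ratio. Leaving out each chromosome moved 3 of 75 values: the control share next to the centromere (24.4% without chromosome 5) and the gene body shares (45.7% control and 40.2% knockdown without chromosome 13), and the ratio stayed between 2.48 and 2.62. In the rest of this paragraph, values are given as control then knockdown. With a −log10 p of at least 4 (342 and 956 regions), the ratio was 2.80, shared regions 0.585% and 0.209%, spacing 1088 and 383.8 kb, gene bodies 39.2% and 41.4%, and genes with a region at an end 23 and 53. With a fold of at least 4 (144 and 310 regions), the ratio was 2.15, width 185 and 208 bp, shared regions 0% and 0%, spacing 2612 and 1329 kb, the control share next to the centromere 21.5%, control gene bodies 39.6%, knockdown gene ends 5.81%, and genes at an end 11 and 20. With equal numbers of entries, the ratio was 1.44, knockdown width 192 bp, spacing 218.0 kb, share next to the centromere 28.5% and genes at an end 92. With at least 12 tags, the ratio was 2.03, spacing 418.1 and 224.3 kb and knockdown genes at an end 92. For regions at the genome-wide input background only, the ratio was 2.98, shared regions 0.613% and 0.206%, spacing 495.9 and 165.6 kb and knockdown width 196 bp. Shared regions were 0.914% and 0.358% with 50% overlap of both, and 4.32% and 1.66% within 1 kb. With windows of 1 kb at gene ends, 3.41% and 2.60% of regions and 41 and 84 genes were counted, with 5 kb 13.8% and 10.7% and 178 and 354 genes, and with gene starts only 3.16% and 2.41% and 38 and 73 genes. These settings change how many regions are counted by construction; other causes of the moves were not tested. Depth limits all values, since most regions rest on under 16 tags.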

Other observations

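Several promoter windows touched by a region belonged to long non-coding RNA genes. In the control this was Gm35299 on chromosome 3 (12 tags). In the knockdown these were Gm19461 (11 tags), Gm40933 (12 tags), Gm32476 and 1700100L14Rik (16 tags each), Gm36732 (12 tags) and Gm32556 (10 tags). The region at Gm32476 was the one that also touched Gm46425, which starts on the opposite strand.

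An input background of 5 or more tags lay under 6 control and 8 knockdown regions of the 5 chromosomes, with 3 and 4 of them on chromosome 1. They included the neighbourhood of Speer4d on chromosome 5, where knockdown regions had 36 and 24 tags over inputs of 7 and 6 and a control region 30 tags over 5, and a shared region 9.02 kb from Snrpe with 33 knockdown tags over 9 and 27 control tags over 3.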
